A study of Mus musculus with 4 samples.

Results

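Otx2, Crx, Prdm1, Nrl, Rorb, Casz1 and Sall3, 7 transcription factor genes of the photoreceptor lineage, were followed in sorted cells of the embryonic mouse retina. They were chosen by name, with earlier results of these data known. Each was found by its gene symbol among the 22431 features (probe sets) of the array, taking only features annotated with exactly 1 symbol. All 7 were present, with 8 features between them, and Casz1, which has 2, was represented by the feature with the higher mean over the arrays.

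The samples came from BAC-Crx-EGFP mice on a 129Sv/Ev background at E17.5 of embryonic development. These mice carry a bacterial artificial chromosome in which regulatory DNA of Crx drives the enhanced green fluorescent protein. Dissected retinas were sorted into EGFP-positive cells (2 samples) and EGFP-negative cells (2 samples), so cells of both fractions carry the transgene and differ in its fluorescence. Total RNA was amplified from 100 ng per sample and hybridised to 1 Affymetrix whole-transcript array each. Nothing in the labels tells whether replicates came from separate litters or sorts or whether retinas were pooled, so the p-values reflect the spread of these 4 samples alone, and that spread may be technical. The comparison asks how the profile of cells with an active Crx reporter differs from that of the remaining retinal cells.

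Photoreceptors arise from retinal progenitors that leave the cell cycle and switch on the homeodomain factor Otx2, without which prospective photoreceptors take other fates. Otx2 activates its relative Crx, which drives photoreceptor genes, and Prdm1 (Blimp1), a zinc finger repressor that keeps Otx2-expressing cells from becoming bipolar cells. The nuclear receptor Rorb acts with Otx2 upstream of Prdm1 and of Nrl, the leucine zipper factor that sets rod against cone identity. Casz1 and Sall3 are zinc finger factors with later roles, Casz1 in the chromatin layout of mouse rods and in progenitors, Sall3 in opsin expression of cones and in horizontal cells.

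The homeodomains of Otx2 and Crx recognise the letters TAATCC, and the sequence before the start of several of these genes holds them. The windows are the 250 bases before each annotated transcript start in the RefSeq promoter table (build GRCm38.p6), which gave 11 windows for 6 of the 7 genes (the Sall3 window was not analysed here). TAATCC, or GGATTA on the opposite strand, occurred in 3 of the 11 windows and in 6.25% of all 32851 windows of that length. Those of Crx (chr7:15879956-15880205, minus strand), of the third of 4 Otx2 starts (chr14:48665110-48665359, minus strand) and of the second of 2 Casz1 starts (chr4:148889097-148889346, plus strand) are printed because they hold it. They read 5′ to 3′ along the gene, with the motif in capitals.
Crx: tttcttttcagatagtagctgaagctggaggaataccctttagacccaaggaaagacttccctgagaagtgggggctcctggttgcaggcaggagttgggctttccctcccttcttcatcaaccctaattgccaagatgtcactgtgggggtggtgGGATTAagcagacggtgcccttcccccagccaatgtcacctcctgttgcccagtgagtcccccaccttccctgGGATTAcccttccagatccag
Otx2 start 3: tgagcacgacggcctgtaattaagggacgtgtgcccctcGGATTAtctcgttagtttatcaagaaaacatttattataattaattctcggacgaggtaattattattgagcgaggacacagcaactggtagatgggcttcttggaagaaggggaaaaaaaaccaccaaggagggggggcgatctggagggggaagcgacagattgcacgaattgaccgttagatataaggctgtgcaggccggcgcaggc
Casz1 start 2: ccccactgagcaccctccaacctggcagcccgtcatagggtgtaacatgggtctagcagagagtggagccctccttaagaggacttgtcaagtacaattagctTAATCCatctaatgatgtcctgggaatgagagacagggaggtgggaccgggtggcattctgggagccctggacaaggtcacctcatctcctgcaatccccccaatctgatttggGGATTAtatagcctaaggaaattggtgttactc

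The Crx window held GGATTA 2 times, beginning at positions -94 and -21, where -1 is the base before the transcript start. Casz1 start 2 held it from position -33 and TAATCC from position -147, and Otx2 start 3 held GGATTA from position -211. The windows of Prdm1 and Nrl, both windows of Rorb and the other Otx2 and Casz1 windows had no exact match. Of 3 further motifs, TGCTGA (bound by Nrl) occurred before Otx2 start 2 and Rorb start 1, AGGTCA (bound by Ror receptors) before Casz1 start 2, and GAAAGT (bound by Prdm1) in none of the 11 windows. Both strands were searched and no matches overlapped, although the windows of Otx2 starts 1 and 2 do overlap each other. Among all windows 16.1% held TGCTGA, 14% AGGTCA and 12.3% GAAAGT. A match is a stretch of letters and not a measured binding site.

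**Figure D1:**
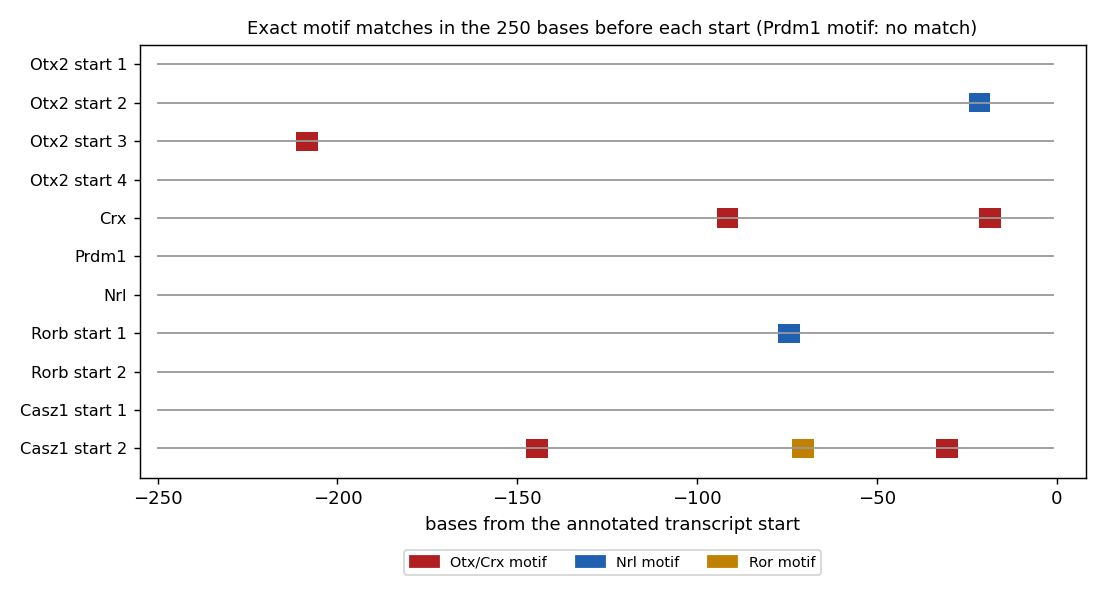
Exact matches to 3 of the motifs searched, on either strand, drawn by distance in bases from the annotated transcript start for the 11 windows of 6 genes (each grey line is 1 window of 250 bases). Crx and Casz1 start 2 each hold 2 Otx/Crx matches, Otx2 start 3 holds 1, and Prdm1 and Nrl hold none of any motif.

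The factors fell into a trio that was far higher in EGFP-positive cells and a group of 4 with small measured differences. Crx was 12.6-fold, Prdm1 6.12-fold and Otx2 3.84-fold higher in the positive fraction, and these 3 passed the test, a limma fit over all 22431 features with two-sided p-values adjusted by the Benjamini-Hochberg method (called: adjusted p under 0.05). Sall3, Nrl, Casz1 and Rorb were measured at 1.35-fold, 1.34-fold, 1.27-fold and 1.23-fold and did not pass it. Of all features 0.82% were called higher and 0.143% lower, against 3 and 0 of the 7 factors. All 7 had a positive log2 difference, with a median of 0.43 against -0.01 over all features. Crx, 1 of the 3 called, is the gene whose regulatory DNA drives the sorted reporter. The 7 genes were also chosen with earlier results of these data known, so the contrast with all features carries no weight of its own. Because whole fractions were measured, more cells of a type and more RNA per cell cannot be told apart.

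Crx, whose regulatory DNA drives the reporter used for the sort, had normalised intensities of 3628.7 and 4758.8 in positive cells, against 292.2 and 370.1 in negative cells. The lowest positive array was thus 9.81 times the highest negative one. The log2 difference was 3.66 ± 0.19 (SE, n = 2 per fraction, limma adjusted p = 0.00596), the fifth largest of all features by rank (5 of 22431). Whether the transgene contributes to the Crx signal is not stated, and selection on a Crx reporter makes this difference a check of the sort.

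Otx2, which acts upstream of Crx, read 4563.7 and 4778.9 in positive cells, against 1277.4 and 1159.5 in negative cells. It was the steadiest of the called factors in the positive fraction, with an SD of 0.05 on the log2 scale, against 0.28 for Crx and 0.33 for Prdm1. Its log2 difference was 1.94 ± 0.11 (adjusted p = 0.00655), rank 72 by size. The mean Otx2 signal of negative cells was 26.1% of that of positive cells, while the corresponding share was 16.3% for Prdm1 and 7.91% for Crx.

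Prdm1, the repressor of bipolar fate, read 2788.9 and 3852.0 in positive cells and 566.0 and 506.8 in negative cells. The fractions did not overlap, and positive replicate 2 was 0.47 log2 units above positive replicate 1, more than the gap of 0.16 between the negative arrays. The log2 difference was 2.61 ± 0.18 (adjusted p = 0.0111), rank 29 by size.

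The 95% intervals of the 3 called factors on the log2 scale were 3.19 to 4.13 for Crx, 2.16 to 3.07 for Prdm1 and 1.67 to 2.21 for Otx2, and those of Prdm1 and Otx2 overlap. The log2 ratio of Crx to Otx2 signal was -0.33 and -0.01 on the positive arrays and -2.13 and -1.65 on the negative arrays, a shift of 1.72. The ratio of Crx to Prdm1 shifted by 1.05 and that of Prdm1 to Otx2 by 0.67, each without overlap between the fractions. Among the 21 pairs of factors, 15 ratios separated the fractions in this way, those with at least 1 called factor, and the 6 ratios among Sall3, Nrl, Casz1 and Rorb overlapped. A two-sided exact permutation test of each ratio gave p = 0.333 for the 15 (0.466 adjusted over the 21 pairs), the smallest p that 2 arrays against 2 allow, so none can pass a threshold of 0.05.

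**Figure D2:**
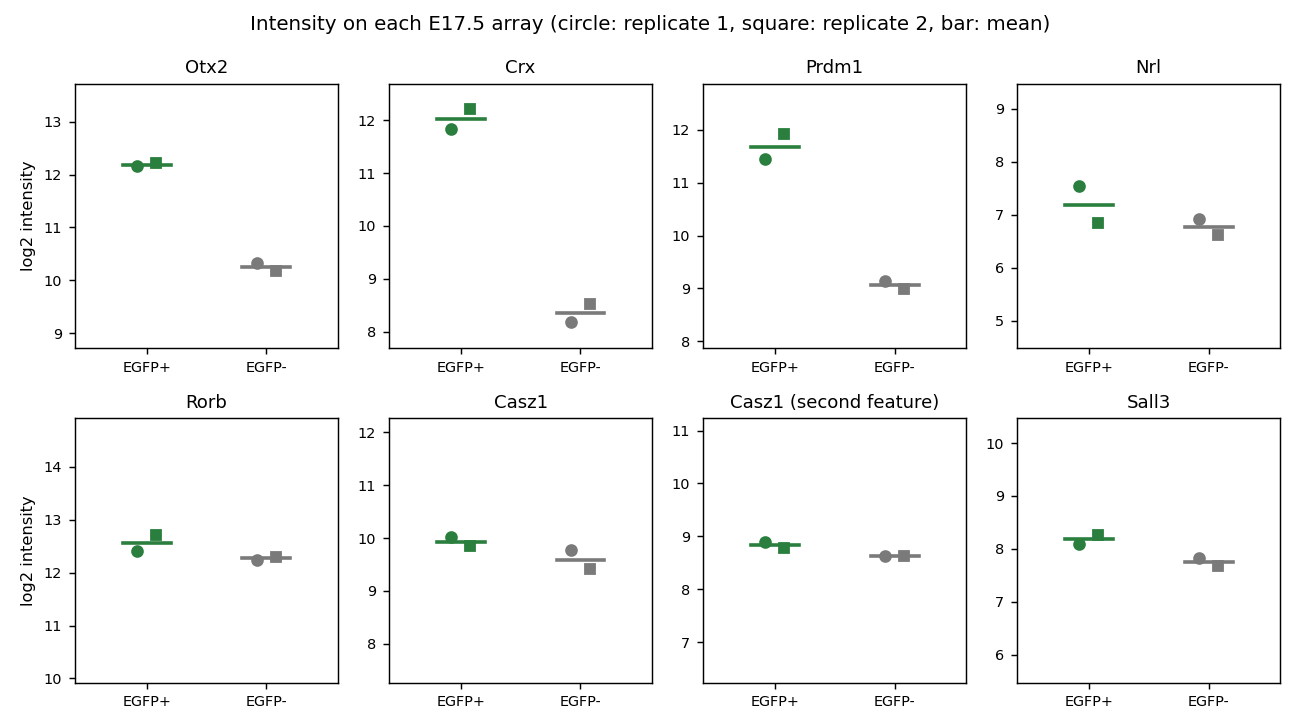
Log2 normalised intensity of the 8 features on each array (circles replicate 1, squares replicate 2, bars the mean of 2 arrays), EGFP-positive left of EGFP-negative. Each panel has its own axis position but spans the same log2 range, so distances compare between panels and heights do not; Otx2, Crx and Prdm1 separate widely and Nrl overlaps.

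Nrl, which directs precursors toward rods, read 185.9 and 114.9 in positive cells, against 121.1 and 98.0 in negative cells. Positive replicate 2 lay below negative replicate 1, so the fractions overlapped, and Nrl alone among the 7 factors did so. Its SD in positive cells was 0.49 on the log2 scale, above the 90th percentile of all features there (0.30). The log2 difference was 0.42 ± 0.25 (adjusted p = 0.462), with a 95% interval of -0.22 to 1.06, which includes a 2-fold difference (1 on the log2 scale). Its signal was dim, at percentile 30.9 of all features by mean log2 intensity and below the array medians of 218.4 to 222.9. Leaving out positive replicate 1 gave 0.08, and leaving out positive replicate 2 gave 0.77.

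Rorb, the receptor upstream of Prdm1 and Nrl, read 5433.2 and 6730.6 in positive cells and 4861.5 and 5011.7 in negative cells. The fractions did not overlap, but the gap between them was 0.12 log2 units, below the 0.31 between the positive replicates. Its log2 difference was 0.29 ± 0.14 (adjusted p = 0.337, 95% interval -0.05 to 0.64). A 2-fold difference in either direction, 1 on the log2 scale, lay outside that interval. Without positive replicate 2 Rorb differed by 0.14, and without positive replicate 1 by 0.45.

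Casz1 read 1034.1 and 925.8 in positive cells, against 872.1 and 683.0 in negative cells, at its main feature. The second Casz1 feature read 477.4 and 437.7 in positive cells and 394.1 and 393.8 in negative cells. Both features read above either negative array on each positive array, with log2 differences of 0.34 ± 0.15 (adjusted p = 0.319) and 0.21 ± 0.10 (adjusted p = 0.355). At the main feature, replicate 1 was above replicate 2 in each fraction. Without negative replicate 2 the main feature differed by 0.17, and without negative replicate 1 by 0.52.

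Sall3, a factor of cones and horizontal cells, read 274.3 and 307.2 in positive cells and 227.5 and 204.2 in negative cells. The gap between the fractions was 0.27 log2 units, larger than the 0.16 between replicates in either fraction. Its log2 difference of 0.43 ± 0.12 had a 95% interval of 0.13 to 0.73 and an unadjusted p of 0.014, but an adjusted p of 0.148, and 9.34% of all features were higher and 9.83% lower at an unadjusted p under 0.05. In all, 6 of the 7 factors had both positive arrays above both negative arrays, as did 22.3% of all features.

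**Figure D3:**
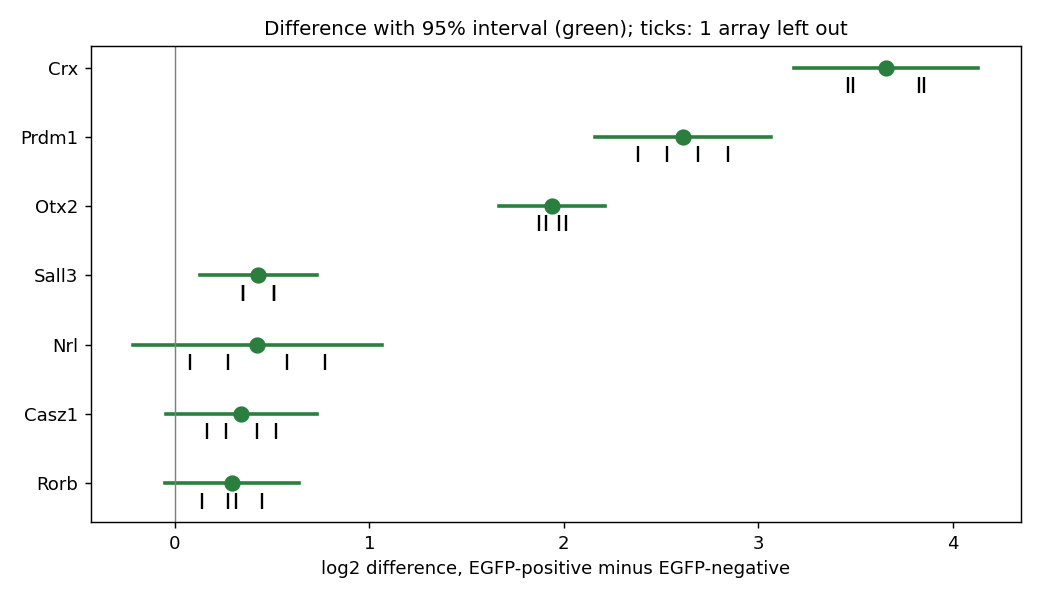
Log2 difference, EGFP-positive minus EGFP-negative, for the 7 factors (point), with limma's 95% interval (green line) and the value with each array left out in turn (black ticks). Crx, Prdm1 and Otx2 lie above 1.67 with their whole intervals, while Sall3, Nrl, Casz1 and Rorb have estimates of 0.29 to 0.43.

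The calls of Otx2, Crx and Prdm1 were lost when either negative array was left out, and the cause was not tested. Without negative replicate 1 the adjusted p was 0.110 for Otx2, 0.107 for Crx and 0.127 for Prdm1, and without negative replicate 2 it was 0.116, 0.115 and 0.126, with log2 differences of 2.01, 3.49 and 2.69 and of 1.87, 3.83 and 2.53. No feature of the array was called in either of these limma fits, where 2346 and 3134 features had an unadjusted p under 0.05, the 3 factors among them.

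Of 22 measured family relatives of the 7 factors (the other Otx, Prdm, Ror, Maf and Sall genes) none was called by limma, 3 were higher and 2 lower at an unadjusted p under 0.05, and the median log2 difference was 0.04. Counts of this size are near the shares over all features, 0.82% called higher and 0.143% lower, with 9.34% and 9.83% at the unadjusted threshold. Rora, the relative of Rorb, had the largest difference of these, with 919.3 and 972.8 in positive cells against 548.5 and 564.7 in negative cells (0.76 ± 0.10, adjusted p = 0.0506). That adjusted p lay just above the threshold and fell below it under 5 of 12 alternative settings, ranging from 0.0109 to 0.329. Maff, a small Maf protein gene that responds to stress, had the largest negative difference (-0.58 ± 0.22, adjusted p = 0.251), but without negative replicate 1 it was -0.31, and without positive replicate 2 it was -0.40 and Mafk -0.41. The other relatives at an unadjusted p under 0.05, named after their values were seen, were Prdm13, a factor of amacrine cells (0.51), Prdm10 (0.36) and Mafk (-0.50). Otx1 read 151.5 and 178.8 in positive cells and 166.9 and 179.2 in negative cells.

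Among 24 measured regulators and partners of photoreceptor fate, from Notch signalling to cofactors of Crx and Nrl, 3 were called higher and 0 lower. They were Neurod4 (log2 difference 2.60 ± 0.10), Neurod1 (2.06 ± 0.14) and Mef2d (1.79 ± 0.18), the first and second proneural factors and the third a partner of Crx at photoreceptor genes. The list's median was 0.09. Of all features 0.82% were called higher and 0.143% lower by limma, with 9.34% and 9.83% at an unadjusted p under 0.05. At that unadjusted threshold 9 members were higher, among them Thrb, which was named after its values were seen and was not called. Its log2 difference of 3.14 (limma adjusted p = 0.0826) was the largest of the list. At the same threshold 3 members were lower, a count near the share of all features. Those 3, named after their values were seen, were the Notch targets Hes1 (-1.50) and Hes5 (-0.85) and the nuclear receptor gene Nr2f1 (-0.91), with limma adjusted p of 0.138, 0.137 and 0.0751. With 1 array left out the differences ranged from -2.06 to -0.93 for Hes1, from -1.17 to -0.53 for Hes5 and from -1.08 to -0.74 for Nr2f1. Mef2d had an adjusted p of 0.0537 with an offset of 50 before log2.

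Of 30 measured genes reported to depend on Crx or Otx2, 11 were called higher and 0 lower, against 0.82% and 0.143% of all features. Their median was 1.01, against -0.01 over all features, and 26 had a positive difference. Rbp3, a retinoid carrier around photoreceptors (4.37), Impg2, a matrix proteoglycan (4.22), Cngb3, a cone channel subunit (4.08), and Mak, a ciliary kinase (3.49), had the largest differences. Cngb3 had an adjusted p of 0.0676 with an offset of 50. The list was drawn up with results of these arrays known and so carries no weight of its own. Its windows before the transcript start held TAATCC in 39.1% of 23 cases, but such sites are among the reasons these genes were reported as targets.

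The chromatin proteins reported as partners of Casz1, those of the NuRD complex and of Polycomb, had 1 of 15 members called, lower. That was Rbbp7, a histone-binding subunit, with 1134.2 and 1114.9 in positive cells against 1976.9 and 1865.9 in negative cells (-0.77 ± 0.10, adjusted p = 0.0489). Its adjusted p was above the threshold under 6 of 12 alternative settings, at most 0.329. The list's median was -0.05, with 2 members higher and 6 lower at an unadjusted p under 0.05, against 9.34% and 9.83% of all features, of which 0.143% were called lower. Within NuRD, the differences of the remodeller Chd4 (0.53, limma adjusted p = 0.0858) and of Gatad2b (0.58, 0.0850) were positive. Those of Mbd2 (-0.60, limma adjusted p = 0.132), Hdac1 (-0.39, 0.258) and Mbd3 (-0.29, 0.259) were negative. All of these were named after their values were seen. Over the whole list 7 members had a positive difference and 8 a negative one.

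**Figure D4:**
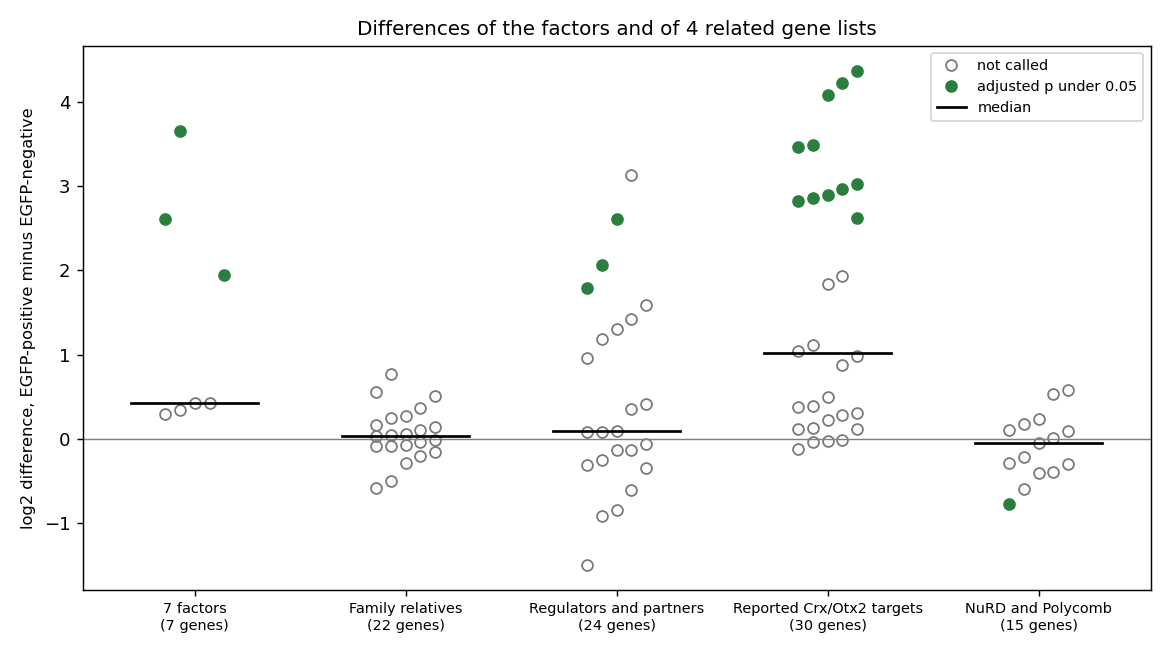
Log2 difference, EGFP-positive minus EGFP-negative, of each gene in the 7 factors and in 4 related lists (filled green: adjusted p under 0.05, open: not called, black bar: median). The medians are 0.43 for the factors, 0.04 for their relatives, 0.09 for regulators, 1.01 for reported targets and -0.05 for chromatin partners.

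Over the 4 arrays, the profiles nearest to that of Otx2 were those of Slc1a2, a glutamate transporter, Glcci1 and Gulo, an enzyme of vitamin C synthesis. Likeness was the Euclidean distance between log2 profiles centred on their own means, over 18913 other genes. The distances from Otx2 were 0.07, 0.11 and 0.11, with log2 differences of 1.95, 1.99 and 1.97. Nearest to Crx were Mak (distance 0.29), Cdhr1 (0.37) and Egflam (0.37), and nearest to Prdm1 were Kif19a (0.27), Rasgrf2 (0.29) and Fabp7 (0.30). Pearson's r was at least 0.99 for these 9 genes, but with 2 fractions of 2 arrays it mostly repeats the difference between fractions.

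Markers of other cells were set beside these values. Of all features 0.82% were called higher and 0.143% lower by limma, with 9.34% and 9.83% at an unadjusted p under 0.05. Otx2 is also a gene of the retinal pigment epithelium and of bipolar cells. The 11 pigment epithelium markers summed to 1188.3 to 1243.6 in positive cells and 1147.5 to 1542.3 in negative cells. None of them was called, 1 was higher at an unadjusted p under 0.05, and 5, among them Rpe65 and Tyr, lay among the dimmest 25% of features. The 11 bipolar markers summed to 2634.8 to 4064.6 in positive cells and 2038.2 to 2708.5 in negative cells, with none called by limma and 3 higher at an unadjusted p under 0.05. Lhx4 and Isl1, the latter also a listed ganglion cell marker, were the brightest of them on the positive arrays. Isl1 read 502.3 and 1224.1 in positive cells and 317.7 and 1075.6 in negative cells. The 11 bipolar markers had a median log2 difference of -0.01, with 5 above 0 and 6 below. Their largest difference was that of Lhx4, named after its values were seen (1.80, adjusted p = 0.0893), with 683.0 and 1468.5 in positive cells against 269.7 and 306.8 in negative cells. With 1 array left out the Lhx4 difference ranged from 1.25 to 2.35.

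Markers of horizontal and amacrine cells summed to more in positive than in negative cells, though such sums follow the brightest genes. Pax6, the brightest amacrine marker, differed by 0.19 on the log2 scale. The horizontal markers Prox1 (0.02) and Calb1 (-0.03) and the amacrine marker Chat (0.01) hardly differed, all named after their values were seen. Onecut2 (1.42) and Onecut1 (1.19), also named afterwards, had the largest horizontal differences and were not called by limma (adjusted p = 0.241 and 0.217). In all, 8 horizontal markers had a positive difference and 1 a negative one, and 12 amacrine markers a positive one. The 9 horizontal markers summed to 4777.1 to 7050.5 in positive cells, against 3270.1 to 3325.7 in negative cells. Tfap2a (1.12) and Tfap2b (1.06), also named afterwards, were called among them at adjusted p of 0.0429 and 0.0399, 5 were higher at an unadjusted p under 0.05, and Calb1 and Gja10 lay among the dimmest 25%. The shares over all features were 0.82% called higher and 0.143% lower, with 9.34% higher at an unadjusted p under 0.05 in limma. The 12 amacrine markers, which include these same Tfap2 genes, summed to 9603.1 to 10749.2 in positive cells and 7417.2 to 7674.6 in negative cells. Among them 2, Chat included, lay among the dimmest 25%, 6 were higher at an unadjusted p under 0.05, and the Tfap2 genes were called. Their adjusted p rose above the threshold without positive replicate 2 (0.0625 for Tfap2a and 0.0647 for Tfap2b) and with an offset of 50 (0.0635 and 0.0537), and for Tfap2b with a variance trend (0.0516). The 13 ganglion cell markers summed to 8559.9 to 12406.8 in positive cells and 5742.7 to 12020.6 in negative cells, with none called by limma (unadjusted p under 0.05 for 1, higher). The part of these cells in the values of Sall3, Casz1 and Prdm1 was not tested. The 11 progenitor markers summed to 18770.9 to 25124.0 in positive cells and 35784.0 to 36466.5 in negative cells, with Sox2, likewise named afterwards, called lower (-1.36) and all 11 below 0. At an unadjusted p under 0.05 in limma 8 of the 11 were lower, against 9.83% of all features. The largest negative difference of the list was that of Hes1 (-1.50), which was not called. The retinal factor Rax gave signal in both fractions, at 2442.3 and 2193.1 in positive and 2247.9 and 2136.2 in negative cells.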

How the data were processed

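RNA of 2 EGFP-positive and 2 EGFP-negative retinal samples was measured on 1 array each, grouped by sample title. The deposited values are normalised intensity values, inferred to be on a linear scale since they range from 18.9 to 36625.2. The submitters' processing notes name RMA and the build mm8, with the RMA version and any filter not given in the sources used here. Array medians were 218.4 to 222.9. No depth exists for arrays, and their number limits the precision.

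Values were taken as log2 without an offset and fitted on all 4 arrays in R 4.3.3 with the lmFit and eBayes functions of limma 3.58.1, without a trend, positive minus negative, with Benjamini-Hochberg adjustment over 22431 features. The variance estimate had 5.26 degrees of freedom. Annotation gave 1 gene symbol for 20176 features, several for 412 and none for 1843. In 10 simulations on 22431 features with 200 changed features, 51.1% of 2-fold and 94.8% of 4-fold changes were recovered and 5.01% of calls were false. The noise was drawn as independent normal values from limma's own variance model, so the share of false calls follows from that model. These rates do not check the real arrays, where 4298 features had an unadjusted limma p under 0.05.

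The 7 genes, 4 related lists, 10 marker lists and the motifs were chosen with earlier results of these data known. Named genes were the 7 factors, the 3 nearest profiles to each of Otx2, Crx and Prdm1, and up to 4 called members of each related list (the 2 largest differences where none was called). Other genes were named after their values were seen. Some list genes and protein sequences were not analysed here. Alternatives covered array centring, quantile normalisation, an offset of 50, removal of dim features, the variance model, averaging features, the replicate number and each array left out.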

Additional observations from a re-analysis of the deposited data

How the results depend on the processing

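All 7 factors kept a positive difference under the 12 alternatives. The 3 calls and the 4 factors not called stayed as they were under the 8 that keep all arrays (median centring, quantile normalisation, an offset of 50, no dim features, 2 variance models, averaged features, replicate block). Leaving out 1 array gave log2 differences of 1.87 to 2.01 for Otx2, 3.46 to 3.86 for Crx and 2.38 to 2.85 for Prdm1, with 0 to 3 factors called. The 3 lost their calls without either negative array, where the limma fit with 1 residual degree of freedom called no feature; the cause was not tested. Features called higher ranged from 0 to 667 and lower from 0 to 762 with 1 array left out, against 184 and 32 with all. The lower count was also 17 with an offset of 50, 21 with a variance trend and 51 with averaged features, and the cause was not tested. Among the lists, 8 to 17 reported targets (11 in the report) and 2 to 8 regulators (3) were called higher with all arrays, and 0 to 14 and 0 to 7 with 1 array left out. The family relatives had 0 to 3 called higher and 0 to 2 lower. For targets and regulators the lowest counts with all arrays came with an offset of 50 and the highest with the replicate block.

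The labels give no basis for pairing equal replicate numbers. Replicate 2 minus replicate 1 correlated between fractions at r = 0.48 over 22431 features, and 4 of the 7 factors had the same sign of it in both fractions. With the replicate block 1377 features were called higher and 1500 lower, and the same 3 of 7 factors. The next lowest adjusted p values were 0.0693 for Sall3, 0.0877 for Nrl, 0.0934 for Casz1 and 0.157 for Rorb. Genes not called without it passed with the block, among them Hes1 (0.0077), Thrb (0.00846), Onecut1 (0.00952), Lhx4 (0.0099), Rora (0.0109), Nr2f1 (0.0165), Hes5 (0.0182), Gatad2b (0.0197), Maff (0.0216), Chd4 (0.0261), Prdm13 (0.0298), Onecut2 (0.0347) and Mafk (0.0376). The block leaves 1 residual degree of freedom. Signal over background was not given, so no factor could be called absent.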

Other observations

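The positive replicates differed from each other in opposite directions for different photoreceptor genes. Nrl was 0.69 log2 units lower in positive replicate 2 than in replicate 1. Samd7, a repressor gene of photoreceptors named after its values were seen, went the same way, with 460.3 in replicate 1 and 123.5 in replicate 2, against 88.3 and 105.5 in negative cells. Thrb, the thyroid hormone receptor gene of cones, likewise named afterwards, went the other way, with 785.9 and 2722.1 in positive cells and 155.0 and 178.2 in negative cells. Onecut1 and Onecut2, genes of horizontal cells and early precursors, also differed in the direction of Thrb, with 456.0 and 1003.0 and with 504.3 and 1608.4 in positive cells, against 236.0 and 372.6 and against 300.8 and 374.5 in negative cells. Crx, Prdm1 and Rorb were higher in positive replicate 2 by 0.39, 0.47 and 0.31 log2 units, while Otx2 differed by 0.07. Over the 13 ganglion cell markers the median of replicate 2 minus replicate 1 was 0.70 in positive and 1.14 in negative cells, and over the 11 progenitor markers it was -0.44 and -0.12. The part of those cells in the replicate differences was not tested.

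Before the transcript starts of genes called higher in positive cells, TAATCC or its reverse complement occurred in 12.7% of 181 windows, against 5.73% of the 18586 windows of all genes on the arrays. The shares for TGCTGA were 18.2% and 14.5%, for AGGTCA 11.6% and 12.4%, and for GAAAGT 11.6% and 11.7%. The genes called higher include Crx and Otx2, which have windows holding TAATCC. They also include the called reported targets, from a list with TAATCC in 39.1% of its 23 windows. Windows of 1 gene can overlap, and these shares were not tested.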
